A study of Mus musculus with 12 samples.

Results

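The 10 genes described here encode chaperones and proteases of mitochondria: the chaperones Hspd1, Hspe1, Hspa9, Dnaja3 and Trap1, and the protease subunits Lonp1, Clpp, Clpx, Afg3l2 and Spg7. They were listed by name, by a rule that uses no measured value, although earlier results of these data were known when the list was made. All 10 were found among the 24452 genes of the deposited RPKM table (reads per kilobase of transcript, scaled to library size). All 10 also passed the filter for testing, a mean RPKM of 0.5 or more, which left 12249 genes.

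RNA came from brown adipose tissue, the fat depot that makes heat by burning fuel in mitochondria, of male C57BL/6J Bom mice 12 weeks of age. ERRKO mice (ERRαγAd-/-) had floxed ERRα and ERRγ alleles deleted by Cre from the adiponectin promoter, so that cells of the tissue without adiponectin expression keep both genes. WT mice were littermates with the same floxed alleles and no Cre. From 10 to 11 weeks of age, mice of each genotype were injected intraperitoneally with 1 mg/kg of CL316,243, which activates β3-adrenergic receptors, or with an equal volume of PBS, daily for 10 days, and BAT was collected 24 h after the last dose. All mice were housed at 30 °C. The 4 groups, WT_PBS, WT_CL, ERRKO_PBS and ERRKO_CL, have 3 libraries each. The labels do not state that each library is a separate animal, and the p-values below measure spread among libraries that may in part be technical.

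Recovered reads, summed over the 12380 genes of a second deposited table, were 8478310 to 9727167 in WT libraries and 12468001 to 13263567 in ERRKO libraries. These sums moved with genotype, but they leave out other genes and are not the depth of a library. For Hspd1, 9421 reads stood beside a deposited RPKM of 250 in WT_PBS replicate 1, and 7925 beside 209 in ERRKO_PBS replicate 1. Reads per RPKM were thus about alike in these 2 libraries, and the part of depth in the results was not tested. Each member had at least 523 reads in every library (Clpp) and at most 23045 (Hspa9). On the deposited scale the typical gene differed between groups, by a median log2 of 0.53 for ERRKO_PBS against WT_PBS and 0.63 for ERRKO_CL against WT_CL. Levels are therefore given as RPKM scaled by the median ratio of each library to all libraries, here called scaled RPKM, and directions that turn on the deposited scale are named. Changes are differences of log2(scaled RPKM + 0.5) with their SE, tested with limma over all 12249 genes and called at a Benjamini-Hochberg adjusted p under 0.05.

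Esrra, which encodes ERRα, had a scaled RPKM of 47.0, 41.7 and 42.4 in WT_PBS and 8.72, 5.26 and 8.9 in ERRKO_PBS. With CL316,243 it was at 83.2, 75.6 and 79.0 in WT and at 8.39, 6.7 and 8.71 in ERRKO, so that no ERRKO library reached the lowest WT library. Esrrg, which encodes ERRγ, fell by 0.87 ± 0.25 (adjusted p = 0.0189) under PBS, and by a value that was not called on the deposited scale (-0.34, adjusted p = 0.274). Under CL316,243 it stood at 7.03 ± 0.951 (SD, n = 3) in ERRKO and 6.92 ± 1.26 in WT, a change of 0.03 ± 0.25 (adjusted p = 0.944), and on the deposited scale it was called higher in ERRKO (0.69, adjusted p = 0.034). The level of Esrrg over the whole gene thus did not follow the genotype label in the agonist groups. Which exons are deleted is not given in the sources used here, and reads from the rest of the gene cannot be told apart from those of an intact transcript.

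Proteins made in the cytosol enter the mitochondrial matrix unfolded, are pulled in and held by the Hsp70 Hspa9 with J-domain partners such as Dnaja3, and many then fold inside the barrel of Hspd1 (Hsp60) capped by Hspe1 (Hsp10). Misfolded or surplus proteins are degraded by ATP-driven proteases. Lonp1 and the ClpXP complex, in which the ring ATPase Clpx feeds the peptidase Clpp, work in the matrix. Afg3l2 and Spg7 are subunits of the m-AAA protease of the inner membrane. Brown adipocytes are rich in mitochondria, and ERRα and ERRγ are nuclear receptors known for driving genes of oxidative metabolism.

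Promoter windows from RefSeq (250 bases before to 50 after a gene start, GRCm38.p6) were searched on both strands for AAGGTCA, the core of the ERR response element. The table held 9 windows for 8 members. Hspa9 and Afg3l2 were not in it. The core was found in 3 of the 9 member windows and in 4.72% of all 32851 windows, and the 3 hold only 2 sites, since the windows of Hspe1 and of an alternative Hspd1 start share 1. The core TGACGT of the cAMP and ATF element was found in 2 of the 9 windows, those of Trap1 and Lonp1, and in 7.51% of all windows. The composite element TTGCATCA bound by CEBP and ATF proteins was found in 0 of the 9 and in 0.895% of all windows. These matches describe letters in a window and show no binding. 3 sequences are shown: the site upstream of Hspe1 within the 5′ end of its head-to-head neighbour Hspd1, read along Hspe1 (chr1:55088088-55088117, plus strand), the upstream bases of Trap1 outside annotated exons (chr16:4077828-4078060, minus strand), and the bases upstream of the RefSeq start of Dnaja3 (chr16:4683820-4684069, plus strand), which changed most with genotype of the members in the table and held none of the 3 motifs. Trap1 was chosen after its values were seen. Capitals mark AAGGTCA and, in Trap1, also a pair of overlapping TGACGT matches, 1 on each strand.
Hspe1 site: tcccgtgggtgaAAGGTCAagtggcgtcat
Trap1 promoter: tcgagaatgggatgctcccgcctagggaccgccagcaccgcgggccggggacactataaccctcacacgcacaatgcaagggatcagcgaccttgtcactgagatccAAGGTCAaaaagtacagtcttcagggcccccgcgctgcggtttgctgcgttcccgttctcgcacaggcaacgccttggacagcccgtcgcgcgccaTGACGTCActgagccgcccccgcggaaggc
Dnaja3 promoter: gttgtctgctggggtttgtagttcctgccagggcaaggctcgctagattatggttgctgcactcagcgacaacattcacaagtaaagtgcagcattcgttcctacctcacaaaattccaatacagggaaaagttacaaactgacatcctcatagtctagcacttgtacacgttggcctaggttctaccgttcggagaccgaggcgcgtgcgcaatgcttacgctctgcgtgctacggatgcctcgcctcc

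The Hspe1 match begins 48 bases upstream of the Hspe1 start and, at chr1:55088100-55088106, lies in an annotated 5′ exon of Hspd1. The Trap1 match to the ERR core begins 143 bases upstream of its start. The gene names, not the coordinates, come from the deposited table, and the positions come from GENCODE M21 on GRCm38 or from RefSeq, as named.

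On scaled RPKM all 10 genes were lowest in ERRKO_PBS and highest in WT_CL. In 9 of the 10 the order from low to high was ERRKO_PBS, ERRKO_CL, WT_PBS, WT_CL, so that agonist-treated ERRKO libraries averaged below PBS-injected WT libraries. Lonp1 was the exception, with ERRKO_CL above WT_PBS. This order depends on the scale: in deposited RPKM it held for 4 genes, Hspa9, Dnaja3, Clpp and Afg3l2. ERRKO_CL was there below WT_PBS in those 4 and Spg7, and above it in Hspd1, Hspe1, Clpx, Trap1 and Lonp1, and Lonp1 and Trap1 were highest in ERRKO_CL. Neighbouring groups in this order overlapped in their library values for Hspd1 (ERRKO_CL and WT_PBS), for Hspe1 (all 3 neighbouring pairs) and for Trap1 (WT_PBS and WT_CL). In the other 7 genes no neighbouring groups overlapped. How many of all 12249 genes share this order or this separation was not counted, so these counts describe the members only. In whole tissue, fewer cells of a type and less RNA per cell cannot be told apart, here and in all levels below.

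**Figure D1:**
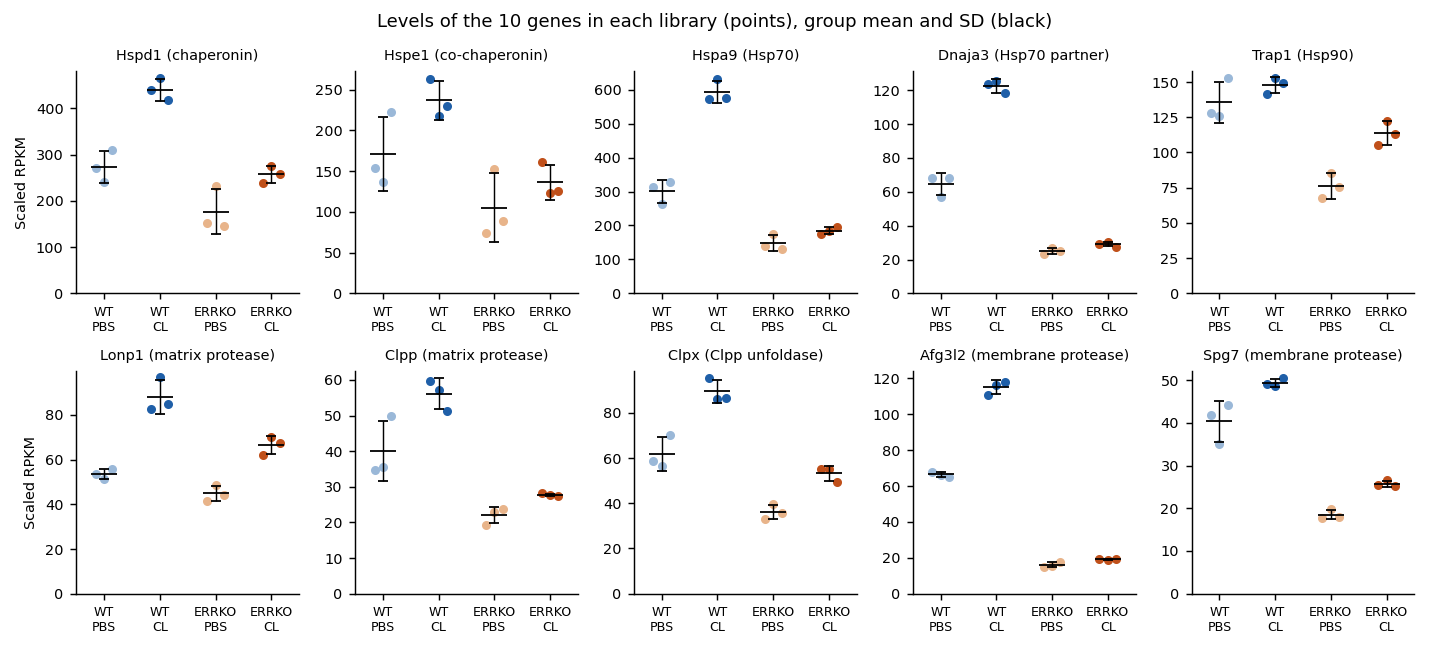
Scaled RPKM of the 10 genes (vertical axes, linear, from 0) in each of the 12 libraries (points), by group, with the mean and SD of the 3 libraries in black. Afg3l2 in ERRKO lies between 15.1 and 19.4, far below its WT libraries at 65.3 to 118, while Lonp1 in ERRKO_CL (62.0 to 70.0) lies above WT_PBS (51.3 to 55.7).

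Hspd1, the Hsp60 chaperonin, stood at a scaled RPKM of 271, 240.3 and 309 in WT_PBS, 439, 465 and 417 in WT_CL, 152, 233 and 146 in ERRKO_PBS and 239, 275 and 257 in ERRKO_CL. The ERRKO libraries lay below the WT libraries of the same treatment without overlap, and replicate 2 of ERRKO_PBS was the high one of its group. Hspd1 was 1.57-fold lower in ERRKO under PBS (log2 -0.65 ± 0.17, adjusted p = 0.00923) and 1.71-fold lower under CL316,243 (-0.78 ± 0.17, adjusted p = 0.00258). With the agonist it rose 1.62-fold in WT (adjusted p = 0.00815) and 1.48-fold in ERRKO (adjusted p = 0.0485). The call in ERRKO was lost in 10 of the 12 fits that left out 1 library (adjusted p up to 0.17), among them all 3 without an ERRKO_CL library. On the deposited scale neither rise was called (adjusted p = 0.0557 in WT and 0.098 in ERRKO), and both genotype changes were -0.06 and not called. With quantile normalization the genotype changes were -0.062 under PBS and -0.096 under CL316,243, and not called (limma adjusted p = 0.731 and 0.583). The genotype call under PBS was also lost with only the groups compared (0.0528) and without both ERRKO replicates 3 (0.0597).

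Hspe1, the lid of the same chaperonin, was at 153, 137 and 223 in WT_PBS, 263, 217 and 230.4 in WT_CL, 73.8, 153 and 89.1 in ERRKO_PBS and 161, 123 and 125 in ERRKO_CL. It had the widest relative spread within groups of the 10 genes. Its genotype changes were -0.74 ± 0.25 (adjusted p = 0.0368) under PBS, where the groups overlapped, and -0.80 ± 0.25 (adjusted p = 0.0208) under CL316,243, where they did not. Neither agonist change of Hspe1 passed, at 0.50 ± 0.25 in WT (adjusted p = 0.151) and 0.43 ± 0.25 in ERRKO (adjusted p = 0.315). The call under PBS was lost without WT_PBS replicate 1 (0.0551) or 3 (0.13) or ERRKO_PBS replicate 1 (0.144) or 3 (0.108), and its log2 change ranged from -1.04 to -0.52 with single libraries left out. The change under PBS was not called with quantile normalization either (-0.33). Under CL316,243 the call was lost without WT_CL replicate 1 (0.0694) or ERRKO_CL replicate 2 (0.0685) or 3 (0.0656), and with quantile normalization (-0.39, adjusted p = 0.142). On the deposited scale neither genotype change (-0.15 and -0.09) was called. The ratio of Hspe1 to Hspd1, which no library scaling can move, was 0.619 ± 0.0895 (SD, n = 3) in WT_PBS and 0.54 ± 0.0671 in WT_CL, while the ERRKO means were 0.584 ± 0.089 with PBS and 0.535 ± 0.121 with the agonist. It differed by genotype by a log2 of -0.06, which an exact permutation test within treatments did not separate from the spread (two-sided p = 0.66).

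Hspa9, the matrix Hsp70 that drives protein import, had the highest scaled RPKM of the 10 genes in each group but ERRKO_PBS and ERRKO_CL, where Hspd1 was higher. Its libraries were at 312, 263 and 327 in WT_PBS, 573, 631 and 576 in WT_CL, 139, 175 and 130.4 in ERRKO_PBS and 176, 185 and 195 in ERRKO_CL. Hspa9 fell by 1.03 ± 0.13 (adjusted p = 6.37e-05) under PBS and by 1.68 ± 0.13 (adjusted p = 7.4e-07) under CL316,243, a 3.2-fold lower level. The agonist raised it 1.98-fold in WT (0.98 ± 0.13, adjusted p = 0.000193). In ERRKO the agonist change of Hspa9 was 0.33 ± 0.13 and did not pass (adjusted p = 0.123). The difference between these agonist changes, -0.65 ± 0.18, did not pass either (adjusted p = 0.0671). It passed with DESeq2 on recovered reads (adjusted p = 0.00699), which called 823 of all genes in place of 477. With limma it passed without WT_PBS replicate 3 (-0.72, adjusted p = 0.0343). The agonist change in ERRKO passed without ERRKO_PBS replicate 2 (0.46, adjusted p = 0.0412). Both misses thus depend on the setting.

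Dnaja3 (Tid1), a J-domain partner of Hspa9, was at 68.3, 56.8 and 68.3 in WT_PBS, 124, 126 and 118 in WT_CL, 23.2, 26.9 and 25.3 in ERRKO_PBS and 29.3, 30.3 and 27.6 in ERRKO_CL. Every ERRKO library had less than every WT library. Dnaja3 was 2.53-fold lower in ERRKO under PBS (-1.34 ± 0.09, adjusted p = 4.92e-07) and 4.16-fold lower under CL316,243 (-2.06 ± 0.09, adjusted p = 1.17e-08). It rose 1.9-fold with the agonist in WT (adjusted p = 3.42e-05), while in ERRKO its change of 0.21 ± 0.09 did not pass (adjusted p = 0.188). The difference between the agonist changes was itself called, at -0.72 ± 0.13 (adjusted p = 0.0116). The ratio of Dnaja3 to Hspa9 was 0.219, 0.216 and 0.209 in WT_PBS, 0.216, 0.199 and 0.205 in WT_CL, 0.167, 0.154 and 0.194 in ERRKO_PBS and 0.167, 0.164 and 0.142 in ERRKO_CL. The partner thus fell further than the Hsp70 itself: the log2 ratio differed by -0.36 between ERRKO and WT (exact permutation p = 0.005, the smallest the design allows; adjusted over 8 ratio tests, 0.02).

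Trap1, the mitochondrial Hsp90, was at 128, 126 and 153 in WT_PBS, 141, 153 and 149 in WT_CL, 67.4, 85.7 and 75.4 in ERRKO_PBS and 105, 122 and 113 in ERRKO_CL. Its agonist change was 0.13 ± 0.11 in WT, not called (adjusted p = 0.413), and 0.58 ± 0.11 in ERRKO, called (adjusted p = 0.00793). The difference between the agonist changes of Trap1, 0.45 ± 0.16, did not pass on scaled RPKM (adjusted p = 0.14) and passed on the deposited scale (0.58, adjusted p = 0.0252). Trap1 was 1.78-fold lower in ERRKO under PBS (adjusted p = 0.000111) and 1.3-fold lower under CL316,243 (-0.38 ± 0.11, adjusted p = 0.0157). The latter turned to 0.34 higher on the deposited scale (adjusted p = 0.0047), so its direction depends on the scale, and with quantile normalization it was 0.0042. The agonist change in WT also turned sign on the deposited scale, to -0.19.

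Lonp1, the Lon protease of the matrix, was at 53.5, 51.3 and 55.7 in WT_PBS, 82.5, 96.9 and 85.1 in WT_CL, 41.6, 48.6 and 44.4 in ERRKO_PBS and 62.0, 70.0 and 67.3 in ERRKO_CL. It had the smallest genotype change of the 10 genes under PBS, -0.25 ± 0.09, which missed the threshold (adjusted p = 0.0505) although the groups did not overlap. Under CL316,243 it was 1.32-fold lower in ERRKO (-0.40 ± 0.09, adjusted p = 0.00377). Both of these turned to called rises in ERRKO on the deposited scale, of 0.33 (adjusted p = 0.00314) and 0.31 (adjusted p = 0.00466). With quantile normalization the change under CL316,243 was -0.10 and not called (limma adjusted p = 0.353). The agonist response of Lonp1 was called in both genotypes on both scales: 1.64-fold in WT (adjusted p = 0.000185) and 1.48-fold in ERRKO (adjusted p = 0.0036) on scaled RPKM, with a difference of -0.15 ± 0.13 between them (adjusted p = 0.594).

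Clpp, the peptidase of ClpXP, ranged in WT from 34.8 to 49.8 with PBS and from 51.4 to 59.8 with the agonist, and in ERRKO from 19.4 to 23.8 and from 27.5 to 28.1. It was 1.78-fold lower in ERRKO under PBS (adjusted p = 0.000408) and 2-fold lower under CL316,243 (adjusted p = 7.14e-05). Clpx, the unfoldase that feeds it, ranged in WT from 56.5 to 70.3 and from 86.2 to 95.4, and in ERRKO from 33.1 to 39.6 and from 49.5 to 55.1. It was 1.7-fold lower under PBS (adjusted p = 0.000121) and 1.67-fold lower under CL316,243 (adjusted p = 0.000108). With the agonist Clpx rose 1.45-fold in WT (adjusted p = 0.00239) and 1.47-fold in ERRKO (adjusted p = 0.00696). Clpp rose 1.41-fold in WT (adjusted p = 0.0131), and its change of 0.33 ± 0.13 in ERRKO did not pass (adjusted p = 0.135). In WT neither agonist rise was called on the deposited scale, at 0.21 for Clpx (adjusted p = 0.0628) and 0.18 for Clpp (0.214). Both genes were thus lower in ERRKO on scaled RPKM, while on the deposited scale the changes of Clpx (-0.18 and -0.03) and of Clpp under PBS (-0.25) were not called. The ratio of Clpx to Clpp was 1.56 ± 0.137 (SD, n = 3) in WT_PBS and 1.6 ± 0.0909 in WT_CL, while the ERRKO means were 1.64 ± 0.122 with PBS and 1.91 ± 0.0972 with the agonist. Its genotype difference of 0.17 had an exact permutation p of 0.03 and did not pass after adjustment over the 8 tests (0.08).

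Afg3l2, a catalytic subunit of the m-AAA protease, showed the largest genotype change of the 10 genes. Its scaled RPKM was 68.0, 66.3 and 65.3 in WT_PBS and 15.1, 15.7 and 17.6 in ERRKO_PBS, and 111, 116 and 118 in WT_CL and 19.4, 19.0 and 19.4 in ERRKO_CL. The lowest WT library was thus more than 3 times the highest ERRKO library. Afg3l2 was 4.03-fold lower in ERRKO under PBS (-2.01 ± 0.07, adjusted p = 5.93e-09) and 5.85-fold lower under CL316,243 (-2.55 ± 0.07, adjusted p = 7.45e-10). On the deposited scale its changes of -1.43 and -1.84 were called as well. With the agonist it rose 1.72-fold in WT (adjusted p = 2.43e-05), and its change of 0.25 ± 0.07 in ERRKO did not pass (adjusted p = 0.0549). That change passed with DESeq2 (adjusted p = 0.0109), and in limma with no filter (0.033). It also passed in limma without WT_PBS replicate 3 (0.0415) or ERRKO_PBS replicate 3 (0.0378). The difference between the agonist changes was -0.54 ± 0.11 (adjusted p = 0.0178), and on the deposited scale it was -0.41 and not called (adjusted p = 0.0611).

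Spg7 (paraplegin), the partner of Afg3l2 in the mixed m-AAA complex, was at 41.8, 35.1 and 44.1 in WT_PBS, 49.1, 48.7 and 50.5 in WT_CL, 17.8, 19.8 and 17.9 in ERRKO_PBS and 25.4, 26.5 and 25.3 in ERRKO_CL. It was 2.14-fold lower in ERRKO under PBS (-1.10 ± 0.09, adjusted p = 1.94e-06) and 1.9-fold lower under CL316,243 (-0.93 ± 0.09, adjusted p = 5.77e-06). Its agonist rise was 1.23-fold in WT (adjusted p = 0.0258), with -0.02 on the deposited scale, and 1.38-fold in ERRKO (adjusted p = 0.00793). The call in WT was lost with quantile normalization (0.14, adjusted p = 0.173) and with only the groups compared (adjusted p = 0.0775). It was also lost without WT_PBS replicate 2 (0.102) or WT_CL replicate 1 (0.0573), 2 (0.0562) or 3 (0.0769). The ratio of Spg7 to Afg3l2 was 0.614, 0.529 and 0.676 in WT_PBS, 0.443, 0.418 and 0.428 in WT_CL, 1.18, 1.26 and 1.02 in ERRKO_PBS and 1.31, 1.4 and 1.31 in ERRKO_CL. The order of the 2 subunit transcripts, per length, was therefore inverted: Afg3l2 exceeded Spg7 in every WT library, and Spg7 exceeded Afg3l2 in every ERRKO library. In recovered reads, not divided by length, Afg3l2 exceeded Spg7 in ERRKO_PBS replicates 1 (1035 against 1019) and 3 (1217 against 1035). Spg7 exceeded Afg3l2 in the remaining ERRKO libraries. The crossing under PBS thus depends on the lengths behind the RPKM, which follow an annotation that is not given. The genotype difference in the Spg7/Afg3l2 ratio was a log2 of 1.28 (0.93 under PBS and 1.64 under CL316,243; exact permutation p = 0.005, adjusted over 8 tests 0.02). With the agonist the log2 Spg7/Afg3l2 ratio was lower in WT (-0.49) and higher in ERRKO (0.22), without overlap of libraries in either genotype. The permutation test averages both genotypes and therefore says nothing about this ratio, and the difference within each genotype was not tested. For the other 3 ratios the agonist difference did not pass, with exact permutation p-values from 0.075 to 0.245.

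**Figure D2:**
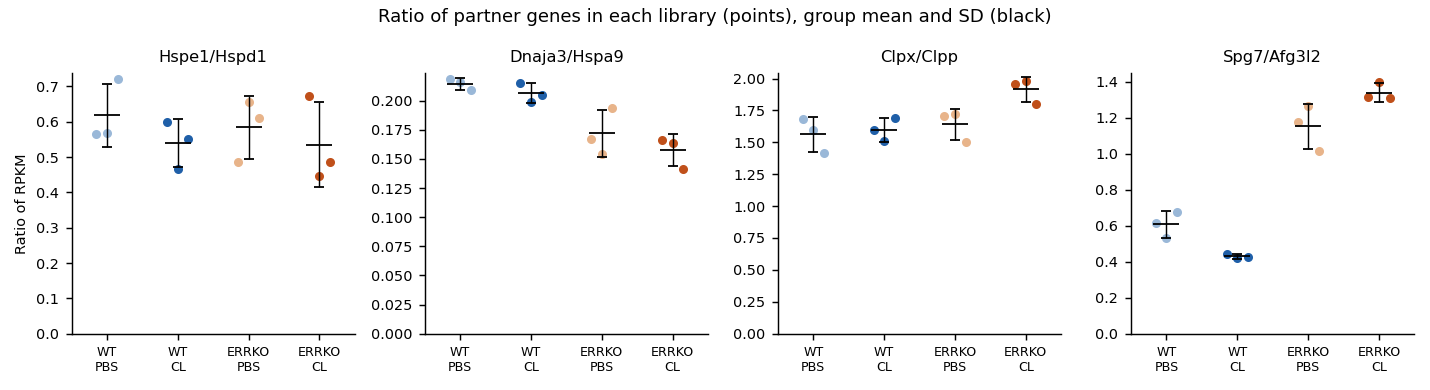
Ratio of the RPKM of partner genes (vertical axes, linear, from 0) in each library (points), by group, with mean and SD in black. Spg7/Afg3l2 lies between 0.418 and 0.676 in WT and between 1.02 and 1.4 in ERRKO, and Hspe1/Hspd1 overlaps between all groups.

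As a set, 9 of the 10 genes were lower in ERRKO_PBS than in WT_PBS and 0 were higher, with a median change of -0.83 against 0.01 for all genes tested, of which 18.4% were called lower. Lonp1 was the gene that did not pass. For ERRKO_CL against WT_CL 10 of the 10 were lower (median -0.86), where 21.6% of all genes were. On the deposited scale 5 genes were lower and Lonp1 was higher under PBS, where 6.22% of all genes were called lower and 66.3% higher. Under CL316,243, 5 were lower, and Lonp1 and Trap1 were higher, with 6.62% and 70.5% of all genes called. The genes lower on both scales were Afg3l2, Dnaja3, Hspa9 and Spg7 in both comparisons, with Trap1 under PBS and Clpp under CL316,243.

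The agonist raised 8 of the 10 genes in WT and lowered 0 (median 0.61), where 17.9% of all genes rose. The largest rises were those of Hspa9 (0.98), Dnaja3 (0.92), Afg3l2 (0.79) and Lonp1 (0.71), and Hspe1 and Trap1 did not pass. In ERRKO the agonist raised 5 of the 10, Trap1, Hspd1, Lonp1, Clpx and Spg7 (median 0.45), where 6.68% of all genes rose. On the deposited scale 4 of the 10 rose in WT, where 7.2% of all genes did, and 4 in ERRKO, where 3.23% did. Afg3l2, Dnaja3 and Hspa9, the 3 members with the largest genotype change under CL316,243, were among the 5 that did not pass there. The test of the difference between agonist changes called 2 members, Dnaja3 and Afg3l2, where 3.89% of all genes were called. These comparisons share libraries, so they are given side by side and not as independent results.

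**Figure D3:**
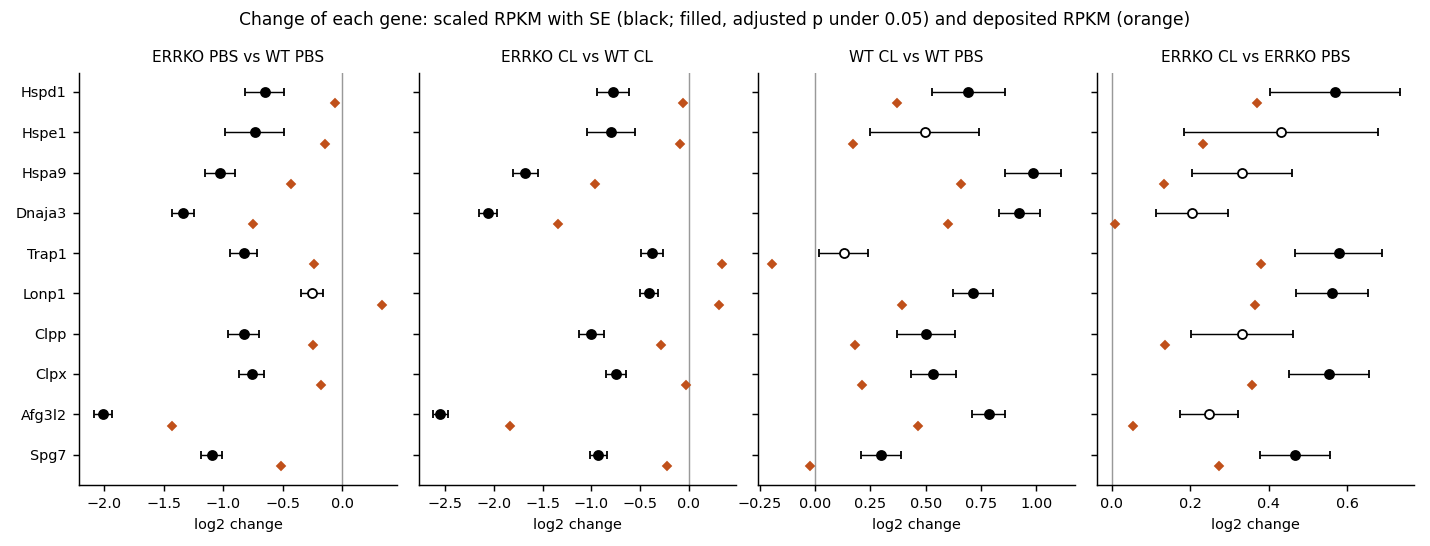
Log2 change of each gene (horizontal axes, which differ in range) in the 4 comparisons: black circles with SE for scaled RPKM, filled where the adjusted p is under 0.05, and orange diamonds for deposited RPKM. Afg3l2 and Dnaja3 lie farthest to the left in both genotype comparisons, and Lonp1 crosses 0 on the deposited scale.

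The members did not share 1 pattern. Over the 4 group means of log2(scaled RPKM + 0.5), each taken less the gene's own mean, Hspe1 and Clpx were the closest pair, with a root mean square difference of 0.046, followed by Hspd1 with Clpx (0.059) and Clpp with Hspe1 (0.081). Spg7 was nearest to Clpp (0.0996) and not to its complex partner. Hspa9 and Dnaja3 were each other's nearest member (0.18). Afg3l2 and Lonp1 were the farthest pair (0.983). Of 7143 genes at a mean RPKM of 5 or more, those nearest to the mean pattern of the 10 were Nudt19 (0.0066), Txnrd2 (0.028), 2300009A05Rik (0.029), Btbd1 (0.038) and Slc30a9 (0.040). The likeness is over 4 groups and 12 libraries only, which all genes share.

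Of 15 other mitochondrial chaperones and co-chaperones, 13 were lower in ERRKO under PBS and 12 under CL316,243, with 0 higher in either (medians -0.77 and -0.90). Over all genes, 18.4% and 21.6% were called lower. Ppif (cyclophilin D) changed by -2.77 ± 0.11 under PBS and by -3.40 ± 0.11 under CL316,243. Timm44, which tethers Hspa9 to the import channel, changed by -1.45 ± 0.12 and -2.09 ± 0.12. Grpel1, the nucleotide exchange factor of Hspa9, fell by 1.57 ± 0.13 under CL316,243 and rose by 1.08 ± 0.13 with the agonist in WT. Clpb, a disaggregase of the intermembrane space, fell by 1.25 ± 0.08 under PBS. Its agonist change was greater in ERRKO than in WT by 0.92 ± 0.12 (adjusted p = 0.00164), and Clpb was lowered by the agonist in WT (-0.31 ± 0.08). By deposited RPKM, 7 of the 15 were lower under each treatment, with 1 and 4 higher. Over all genes on that scale, 6.22% and 6.62% were called lower and 66.3% and 70.5% higher. The agonist raised 10 of the 15 in WT and lowered 1 (median 0.54), and raised 6 in ERRKO and lowered 0 (median 0.32). It raised 17.9% of all genes in WT and 6.68% in ERRKO.

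Of 20 other mitochondrial proteases and their regulators, 12 were lower and 1 higher in ERRKO under PBS, and 15 lower and 0 higher under CL316,243 (medians -0.43 and -0.67). Over all genes, 18.4% and 21.6% were called lower. By deposited RPKM the counts were 4 lower and 9 higher, and 5 lower and 6 higher. On that scale 66.3% and 70.5% of all genes were called higher, and 6.22% and 6.62% lower. Lace1, an ATPase of the inner membrane, changed by -2.09 ± 0.12 and -2.75 ± 0.12. Mipep, which trims imported precursors, changed by -1.12 ± 0.11 and -1.22 ± 0.11. Immp2l, an inner membrane peptidase, fell by 1.61 ± 0.19 under PBS. Parl, a rhomboid protease, changed by -0.62 ± 0.08 and -0.78 ± 0.08. Phb (prohibitin), which associates with m-AAA complexes, fell by 1.47 ± 0.13 under CL316,243. The agonist raised 15 of the 20 in WT (median 0.57), among them Afg3l1, a mouse paralog of Afg3l2, by 0.86 ± 0.11, and raised 7 in ERRKO (median 0.32). Over all genes, 17.9% rose in WT and 6.68% in ERRKO.

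Chaperones of other compartments were counted in the same way. Over all 12249 genes, 2250 (18.4%) were called lower in ERRKO and 1939 higher under PBS. Under CL316,243, 2647 (21.6%) were called lower and 2431 higher. Of 27 cytosolic chaperones, 4 were lower and 0 higher under PBS (median -0.13), and 3 lower and 5 higher under CL316,243 (median -0.04). Of 16 chaperones of the endoplasmic reticulum, 2 were lower and 3 higher under PBS, and 2 lower and 6 higher under CL316,243. P4hb rose by 0.92 ± 0.11 and Pdia4 by 1.00 ± 0.15 in the latter. By deposited RPKM, 16 of the 27 cytosolic chaperones were higher in ERRKO under PBS and 23 under CL316,243, with 0 lower in either, beside 66.3% and 70.5% of all genes. The lists were described by these counts, and no test compared them with each other. All 27 respiratory chain subunits listed were lower in ERRKO in both comparisons and on both scales, with medians of -2.27 and -2.56 on scaled RPKM. The largest member changes, those of Afg3l2, were -2.01 and -2.55. Cycs (cytochrome c) fell by 3.53 ± 0.15 under PBS.

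Loss of mitochondrial function can raise a transcriptional stress response through Atf4 and Atf5, in which Hspd1, Hspe1, Lonp1 and Clpp have been used as markers of the mitochondrial branch. Of 12 genes listed for it, Fgf21 and Gdf15 were below the filter. Under PBS, 3 of the other 10 were higher in ERRKO and 0 lower: Psat1 and Phgdh, enzymes of serine synthesis, rose by 3.33 ± 0.28 and 1.78 ± 0.22, and Chac1 rose by 1.04 ± 0.20. Under CL316,243, 4 were higher and 3 lower, with Phgdh up by 3.88 ± 0.22, Psat1 up by 3.63 ± 0.28, Atf5 at -0.65 ± 0.13 and Asns at -0.68 ± 0.15. Atf4 was at 0.05 ± 0.11 and -0.29 ± 0.11 and was not called in either. Of all 12249 genes, 1939 were called higher and 2250 lower under PBS, and 2431 and 2647 under CL316,243. On scaled RPKM the members used as its markers were lower or, for Lonp1 under PBS, not called. By deposited RPKM 9 of the 10 listed genes were higher under PBS and 7 under CL316,243, with 0 lower, beside 66.3% and 70.5% of all genes. Among the marker members on that scale, Lonp1 was called higher in both comparisons (0.33 and 0.31). Clpp was called lower there under CL316,243 (-0.29), and the remaining marker changes were not called. Whether the response was active was not tested.

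**Figure D4:**
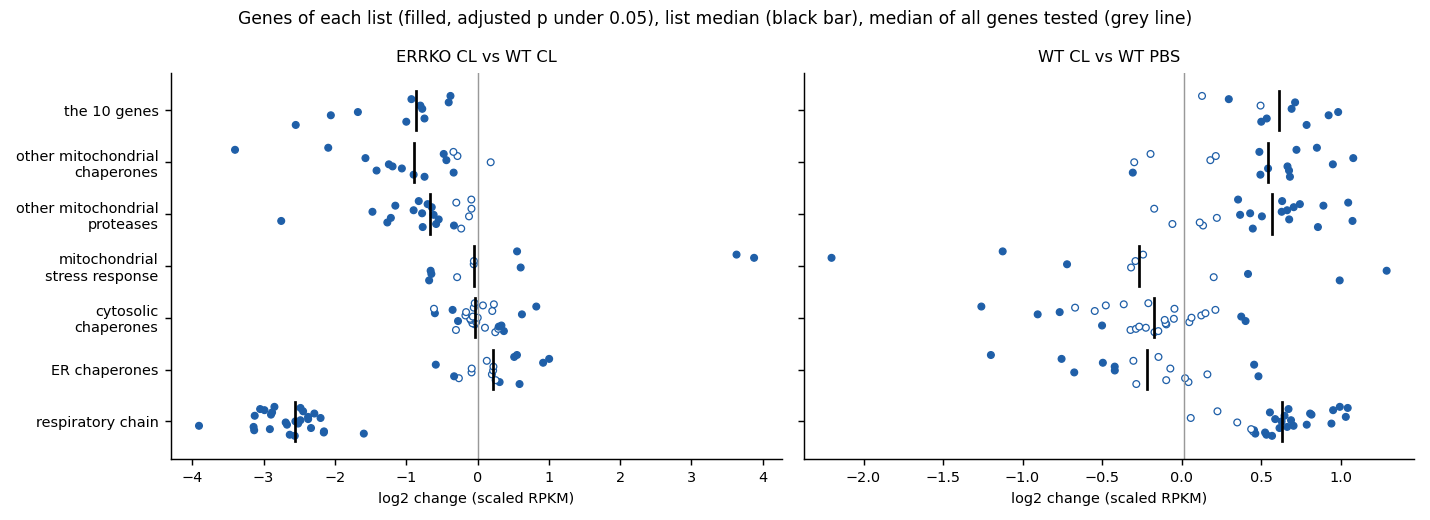
Log2 change of scaled RPKM (horizontal axes, which differ in range) for each gene of 7 lists in ERRKO CL vs WT CL and in WT CL vs WT PBS, filled where the adjusted p is under 0.05, with the list median as a black bar and the median of all genes as a grey line. The 10 genes and both further mitochondrial lists lie mostly left of the line on the left and right of it on the right, and cytosolic chaperones lie on both sides of it.

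Markers of other cell types moved with some groups. The summed scaled RPKM of 18 skeletal muscle markers was 46.0 to 407 with PBS and 70.6 to 534 with the agonist in WT, and 173 to 3937 and 297 to 2119 in ERRKO, with replicate 3 highest in both ERRKO groups. Without those 2 libraries 7 members were lower in ERRKO under PBS and 8 under CL316,243, and 2 rose with the agonist in ERRKO. Calls over all genes, in either direction, fell too: from 4189 to 3277 and from 5078 to 4136 between genotypes. For the agonist in ERRKO they fell from 1261 to 474, and for the difference between agonist changes from 477 to 215. Several of the members' lost calls kept their size: Trap1 was at 0.58 for the agonist in ERRKO and at -0.37 between genotypes under CL316,243, and Spg7 was at 0.46 for the agonist in ERRKO. In that fit 0 members were called for the difference between agonist changes (limma; 4 had an unadjusted p under 0.05, and no other tool was run on these libraries), where Dnaja3 and Afg3l2 were called with all libraries. ERRKO_PBS replicate 2, highest of its group for 8 members (all but Clpp and Afg3l2), had the lowest muscle sum of its group. Replicate 3 of that group, with the highest muscle sum (3937), was lowest only for Hspd1 and Hspa9. The remaining members were lowest in replicate 1, with a muscle sum of 543, so the members did not follow the muscle sum across these 3 libraries. The sum of 6 adipocyte markers was 10296 to 15415 with PBS and 16636 to 17704 with the agonist in WT, and 11619.9 to 15792 and 20311 to 20507 in ERRKO, so adipocyte transcripts were present in every library. Most of this sum is Fabp4, at a mean deposited RPKM of 12532. Taken singly, 3 of the 6 were called higher in ERRKO under PBS and 4 under CL316,243, with 0 lower. Over all 12249 genes, 1939 and 2431 were called higher. The sum of 8 brown adipocyte markers, 2871 to 4896 and 7125 to 9160 in WT against 387 to 685 and 1191 to 1515 in ERRKO, was lower in ERRKO. Singly, 5 of the 8 were called lower under PBS and 6 under CL316,243, beside 18.4% and 21.6% of all genes. Sums of 7 macrophage markers ranged from 202 to 411 in WT_PBS and from 113 to 149 in WT_CL, and those of 5 fibroblast markers from 236 to 468 in WT and 510 to 748 in ERRKO. Sums of 5 endothelial markers ranged from 124 to 210.0 over all libraries. No marker was at 0 in all libraries of a group. The part of these cell types in the members' changes was not tested.

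By position, Hspd1 (ENSMUSG00000025980.14, chr1:55077835-55088243, minus strand) and Hspe1 (ENSMUSG00000073676.4, chr1:55088132-55091307, plus strand) overlap at their 5′ ends, over 4.24% and 7.6% of their exon bases. Whether counting used strand is not given in the sources used here, and reads in that overlap cannot be assigned. Near-identical copies (at least 95% identity over 100 bases) cover 71.1% of the Hspd1 transcript, from 3 processed pseudogenes, 66.5% of the Hspe1 transcript, from 1 protein-coding gene model, and 10.8% of that of Clpx, from 1 pseudogene. Values of these 3 genes are uncertain to the extent that reads were split or dropped. Clpx lies at chr9:65294260-65330658 (plus), Lonp1 at chr17:56614297-56626887 (minus), Clpp at chr17:56990305-56996188 (plus) and Spg7 at chr8:123062942-123097760 (plus). Dnaja3 (chr16:4639989-4707695, plus, with a longer transcript that begins upstream of the RefSeq start at 4684070) shares 8% of its exon bases with Coro7 and Vasn, and Trap1 (chr16:4039971-4077827, minus) shares 2.1% with Dnase1. Hspa9 (chr18:34937414-34954357, minus) and Afg3l2 (chr18:67404764-67449172, minus) overlap no other gene's exons and have no such copy of the transcript searched. The same holds for Lonp1, Clpp and Spg7. Copies were searched among annotated transcripts with the longest coding transcript of each gene. For Afg3l2, which changed most, that transcript has 3094 bases, while its exons cover 9874, so the remaining exon bases were not searched for copies.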

How the data were processed

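Brown adipose tissue RNA from 12 mouse libraries was sequenced after a TruSeq total RNA preparation from 1 µg, per the labels' protocols. The tools named in the submitters' processing notes are STAR 2.3.0, edgeR, cutadapt and bcl2fastq 2.16.0.10, and the builds are mm10 and mm9, without their roles. How reads were counted, with which annotation and strand setting, is not given in the sources used here. The authors deposited RPKM values for 24452 genes, normalized to a library total that is not stated. A second table deposited by the authors, named as log CPM, holds a linear signal for 12380 genes, of which 12379 match the first table. Each of its values is a whole multiple of a step (100% within a tolerance of 0.01), which gave the reads per gene. A further 9 stray cells outside its columns were left out.

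RPKM were scaled by median of ratios over 12126 genes (factors 0.705 to 1.37), and log2(scaled RPKM + 0.5) was fitted with limma 3.58.1 (empirical Bayes with trend, R 4.3.3) for 12249 genes, with 4 group means, all 12 libraries and 8 residual degrees of freedom. The pseudocount of 0.5 makes folds of low genes too small. Adjustment within each comparison was by Benjamini-Hochberg. Partner ratios were compared by exact two-sided permutation over 400 arrangements within strata, adjusted over 8 tests. Members, gene lists and the scale were chosen with earlier results of these data known. All members, the targeted genes, up to 4 genes of each list with the smallest p, and the 5 genes nearest to the members' mean pattern were to be named. Atf4 was named outside that rule, after its values were seen, and Clpb is also given for WT. Promoters were to be searched for members changed by at least 1 (log2) with genotype and for Hspd1 and Hspe1. The search was extended to all members after seeing the data. The fit and the permutation test were tested on simulated data. Alternatives were the deposited scale, quantile normalization, pseudocounts of 0.1 and 1, other filters, only the groups compared, the second table, edgeR 4.0.16 and DESeq2 1.42.0 on recovered reads, a replicate block, each library left out, and ERRKO replicates 3 left out together. No pair of libraries held identical values, and 0 columns of other samples were present. Positions are 1-based.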

Additional observations from a re-analysis of the deposited data

Results flagged for a closer look

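The interaction term of the limma fit, the difference between the agonist changes, called 2 of the 10 genes, beside 3.89% of all 12249 genes. For Dnaja3 the agonist change in ERRKO less that in WT was -0.72 (adjusted p = 0.0116), from a mean scaled RPKM of 64.5 to 122 in WT and of 25.2 to 29.1 in ERRKO. For Afg3l2 it was -0.54 (adjusted p = 0.0178), from 66.5 to 115 in WT and from 16.1 to 19.2 in ERRKO. Leaving out any single library moved the Dnaja3 value between -0.77 and -0.63 (adjusted p 0.00702 to 0.0356) and the Afg3l2 value between -0.57 and -0.47 (adjusted p 0.0142 to 0.0558), and Afg3l2 was not called without WT_CL replicate 3 (0.0558) or ERRKO_CL replicate 2 (0.0521). Without both ERRKO replicates 3 the values were -0.67 for Dnaja3 (adjusted p = 0.0694) and -0.47 for Afg3l2 (0.0857), and neither was called. Afg3l2 was also not called with quantile normalization (-0.39, adjusted p = 0.0937) or on the deposited scale (-0.41, 0.0611), where Trap1 was called instead (0.54, 0.0304, and 0.58, 0.0252). Dnaja3 was called on both.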

How the results depend on the processing

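Pseudocounts of 0.1 and 1, edgeR, DESeq2, other filters, the fit of only the groups compared (not possible for the interaction) and the second table kept the number of members called within 1.5 times. For ERRKO_CL against WT_CL, 6 members were called with quantile normalization. For WT_CL against WT_PBS, 4 were called on the deposited scale. Without both ERRKO replicates 3, the agonist comparison in ERRKO called 2 and the interaction 0, where 474 and 215 of all genes were called. With each library left out in turn, 8 to 10, 9 to 10, 6 to 8, 4 to 7 and 1 to 3 members were called in the 5 comparisons in order. The interaction gave 1, by Dnaja3, without WT_CL replicate 3 or ERRKO_CL replicate 2. The cause was not tested.

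Signs reversed as follows. On the deposited scale Lonp1 was at 0.33 and 0.31 and Trap1 at 0.34 between genotypes, Spg7 at -0.024 and Trap1 at -0.19 for the agonist in WT, and the interactions of Hspd1 and Hspe1 were 0.0031 and 0.060. With quantile normalization Trap1 was at 0.0042 and -0.10. The Clpx interaction was -0.011 in the second table and -0.0063 with edgeR. With single libraries left out, interactions ranged from -0.24 to 0.10 (Hspd1), -0.28 to 0.24 (Hspe1) and -0.084 to 0.090 (Clpx), and the Hspe1/Hspd1 genotype ratio from -0.14 to 0.0079.

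Over all genes, 8877 in place of 4189 were called for genotype under PBS on the deposited scale, 9451 in place of 5078 under CL316,243, and 2068 in place of 1261 for the agonist in ERRKO. DESeq2 called 823 in place of 477 for the interaction. With single libraries left out the count ranged from 513 to 1640 for the agonist in ERRKO and from 225 to 820 for the interaction. Replicate numbers are shared between groups, but deviations of same-numbered libraries correlated at -0.219 to 0.373 and did not pair them. With the replicate block 9, 10, 8, 4 and 2 members were called. Hspe1 under PBS (adjusted p = 0.0587) and Hspd1 in ERRKO (0.0655) were lost and Lonp1 under PBS (0.0489) was gained. With edgeR the first 2 were also lost (0.052 and 0.0765), as they were with no filter (0.0747 and 0.0855) and with only the groups compared (0.102 and 0.102), and Hspd1 also in the second table (0.0614) and with RLE factors (0.0597). Spg7 for the agonist in WT was lost with only the groups compared (0.0775).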
